A study of Homo sapiens with 12 samples.

Results

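Newly made RNA was compared between the libraries labelled shCDK12, whose labels name no 4-hydroxytamoxifen (OHT), and those labelled shNT_OHT, in which the MycER protein was activated with OHT. The comparison took the 3 libraries that carry each label, 6 of the 12 in the series. It asks what separates groups that both transcribed ribosome production genes, a part of the Myc programme, above the untreated control. All libraries came from U2OS-MycER, a human osteosarcoma line that stably expresses a chimera of Myc and an estrogen receptor domain. The chimera is always made, and OHT activates it. Cells of both groups carried doxycycline-inducible short-hairpin RNAs and were given doxycycline at 1 µg/mL. The hairpins were non-targeting (shNT) in the shNT_OHT group and directed against CDK12 in the other, and how many hairpins were used against CDK12 is not given in the sources used here. The shNT_OHT cells had OHT at 300 nM for 40 h. Both groups were then arrested with nocodazole at 100 ng/mL for 8 h, and the mitotic cells were shaken off and released for 12 h. A pulse of 2 h with 5-ethynyl-uridine (EU) at 0.5 mM marked the RNA made in that time. By the labels the groups therefore differed in the hairpin and in OHT at once, and their effects cannot be told apart here. Levels in the other libraries of the series are given as background. Those labelled shNT, called untreated, had the non-targeting hairpin and no OHT named. Those labelled shCDK12_OHT had the hairpin against CDK12 and OHT at 300 nM for 40 h. Doxycycline, nocodazole, release and EU were the same in these as in the groups compared. Nothing in the labels says that the replicates were separate cultures, so the p-values measure the spread between these libraries, which may be technical.

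In EU-seq, labelled RNA is tagged with biotin, captured and sequenced, and the reads follow transcription during the pulse and not the store of mature RNA. Myc pairs with Max, binds the E-box CACGTG and is known for raising the genes of ribosome production, nucleotide synthesis and growth, and for holding down genes of adhesion and cell cycle arrest. CDK12, bound to cyclin K, phosphorylates the tail of RNA polymerase II, and is known for sustaining elongation over long genes and for the expression of DNA repair genes. Osteosarcoma cells are of mesenchymal origin and make abundant extracellular matrix.

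The libraries differed in depth. Those labelled shCDK12 held 4142570, 9400045 and 5349901 counts, and those labelled shNT_OHT 3297982, 1251695 and 3666406, so weakly transcribed genes were measured least precisely in shNT_OHT. After every library was thinned to 1251695 counts, the libraries labelled shCDK12 had at least 1 count on 17470, 17114 and 16995 genes and the shNT_OHT libraries on 15495, 16084 and 15512, against 16143, 16561 and 16298 in untreated shNT. Genes too weak for the test below took 2.34%, 2.26% and 2.19% of counts in the first group and 1.77%, 1.73% and 1.67% in the second. The libraries labelled shCDK12 thus had counts on more genes at equal depth. Their replicates were closer to each other, with a median absolute log2 difference between libraries of 0.152 to 0.212, than the shNT_OHT replicates (0.257 to 0.399), and libraries of different groups were 0.419 to 0.619 apart. Replicate 1 of shNT_OHT was the farthest from both its own group and the other.

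CDK12 itself bears on the labels. It was at 306, 278 and 302 CPM in the libraries labelled shCDK12 (295 ± 14.8) against 436, 358 and 395 CPM in shNT_OHT (397 ± 39), where CPM are TMM-scaled counts per 1e6 counts, given with their SD (n = 3). The groups did not overlap, and CDK12 was lower in the libraries labelled shCDK12 (log2FC -0.43 ± 0.12, adjusted p = 0.011). Here and below, log2FC is the log2 fold change of these libraries over shNT_OHT with its standard error, and adjusted p-values are from the quasi-likelihood test of edgeR after Benjamini-Hochberg adjustment. The adjusted p was 0.0617 without shCDK12 replicate 2 and 0.0516 without shCDK12 replicate 3. Untreated shNT cells had 326, 284 and 313 CPM (308 ± 21.7), a range that overlaps the libraries labelled shCDK12. The libraries labelled shCDK12_OHT had 218, 208 and 221 CPM (216 ± 6.56), the lowest of the series. CDK12 was thus set apart from every shNT library in the libraries labelled shCDK12_OHT, and not in those labelled shCDK12. Whether the labels shCDK12 and shCDK12_OHT were exchanged cannot be settled from the sources used here. If they were, the libraries labelled shCDK12 had OHT, as shNT_OHT did, and the groups compared differed in the hairpin alone. The labels are used as deposited, and this doubt applies to every direction below. Hairpins act on finished transcripts, so newly made RNA is no direct measure of silencing. CCNK, which encodes cyclin K, was at 59.6, 61.2 and 56.7 CPM against 51.7, 34 and 39.2 CPM (log2FC 0.48 ± 0.18, adjusted p = 0.0509). CDK13, the paralogue that shares cyclin K, was at 179, 171 and 174 CPM against 137, 139 and 159 CPM (log2FC 0.27 ± 0.13, adjusted p = 0.117). Neither passed the test, although the groups did not overlap at either gene. In the fit of all 12 libraries both passed (adjusted p = 0.0242 for CCNK and 0.046 for CDK13). CCNK also passed in some other fits, among them that without shNT_OHT replicate 1 (adjusted p = 0.00593), and CDK13 in no other.

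Across the transcriptome the groups stood far apart. Of 10726 genes that averaged over 32 normalized counts, 4294 (40.0%) had an adjusted p under 0.05. They were higher in the libraries labelled shCDK12 at 2090 genes (19.5%) and lower at 2204 (20.5%), and higher and lower are used in this sense below. The median log2FC of all genes was 0.021, and 796 genes were higher and 819 lower by a log2 of at least 1. The libraries of the groups did not overlap at 51.2% of all genes tested, and 37.5% also passed the test with a mean of at least 10 CPM over the 6 libraries, the condition for naming a gene. The groups do not overlap at any gene given below with a log2FC, unless said otherwise. These percentages are the background for each gene list. A gene at a few CPM in 1 group can have passed the filter of 32 counts through the other group alone, and its fold is then imprecise. Leaving out shCDK12 replicate 2, the deepest library, left 2810 calls, 1314 of them higher and 1496 lower, and without shCDK12 replicate 3 1378 were higher. Where leaving out 1 library, or removing trends in gene span and GC content, moved a count of a list by over 1.5 times and by at least 2 genes, the count is given beside it, and a list's median with these trends removed or at equal depth is given where it turned or moved by over 1.5 times. Each list was written from general knowledge with earlier results of these data known, and is described by counts and medians with no test of its own.

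**Figure D1:**
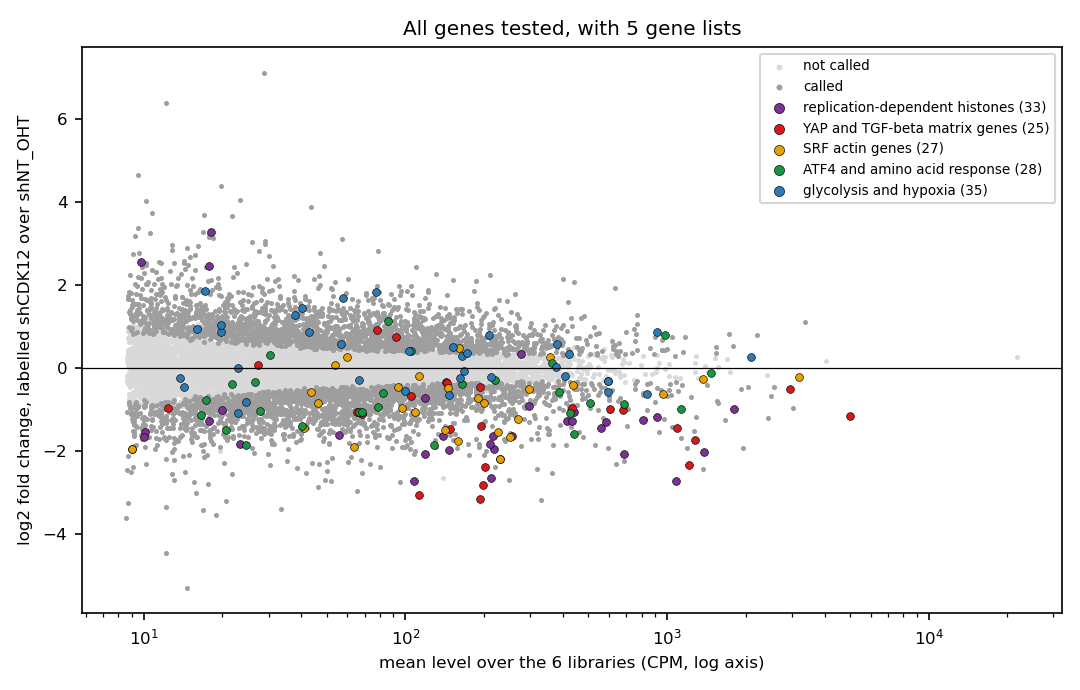
Log2 fold change of each of the 10726 genes (vertical axis, libraries labelled shCDK12 over shNT_OHT) against its mean level over the 6 libraries (CPM, logarithmic axis); dark grey points passed the test and coloured points belong to 5 gene lists, with the number tested in brackets. Histone genes, matrix genes and actin genes lie mostly below 0, with medians of -1.43, -1.10 and -0.71, and 4 histone genes lie above 0.

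Genes of ribosome production, the programme Myc is best known for, lay above untreated shNT in both groups. For nucleolar factors it was by a median log2 difference of 0.62 in shNT_OHT and 0.58 in the libraries labelled shCDK12. In the libraries labelled shCDK12_OHT it was -0.022. The same shNT libraries enter all these values, which are only set side by side. The summed level of the list was 9421, 9909 and 9491 CPM in shNT, 13234, 13656 and 14859 CPM in shNT_OHT and 12297, 12445 and 12932 CPM in the libraries labelled shCDK12. It was 8275, 8828 and 8708 CPM in those labelled shCDK12_OHT, below every library of untreated shNT. Between the groups, 5 of 50 genes tested were higher and 8 lower (median log2FC -0.044, -0.022 at equal depth), where the background shares are 19.5% and 20.5%. There were 8 higher without shNT_OHT replicate 2 and 11 higher with length and GC trends removed. MRTO4, a ribosome assembly factor, was at 179, 151 and 169.6 CPM against 299, 231 and 284 CPM (log2FC -0.71 ± 0.14, adjusted p = 0.00111). EBNA1BP2, a factor of large-subunit processing, was also lower, at 179, 155 and 153 CPM against 272, 232 and 268 CPM (log2FC -0.67 ± 0.13, adjusted p = 0.00118). GAR1, a protein of box H/ACA snoRNPs, was higher, at 54, 59.3 and 63.5 CPM against 25.5, 39 and 38.1 CPM (log2FC 0.81 ± 0.20, adjusted p = 0.0058). The nucleophosmin relative NPM3 (71.3 ± 6.9 against 42.9 ± 8.35 CPM, log2FC 0.71, adjusted p = 0.00738) was higher too. A p that misses the threshold does not show equal levels at the other members.

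Cytosolic ribosomal proteins were likewise above shNT in both groups (0.35 and 0.30). Between the groups, 7 of 74 genes tested were higher and 21 lower (median log2FC -0.14). There were 4 higher without shCDK12 replicate 2, 17 higher with length and GC trends removed, 12 lower without shCDK12 replicate 2 or shCDK12 replicate 3 and 13 lower without shCDK12 replicate 1. RPL38, a large-subunit protein, was at 167, 165 and 164 CPM against 364, 275 and 380.4 CPM (log2FC -1.05 ± 0.14, adjusted p = 6.85e-05). RPL35A, of the same subunit, was at 31.4, 37.3 and 34.4 CPM against 73.5, 66.4 and 77.9 CPM (log2FC -1.08 ± 0.17, adjusted p = 0.000225). Both were lower with no overlap. RPS26, a small-subunit protein, went the other way, at 22.4, 23.3 and 29.1 CPM against 13.9, 9.96 and 8.3 CPM (log2FC 1.21 ± 0.27, adjusted p = 0.00349). Among mitochondrial ribosomal proteins, 5 of 69 genes tested were higher and 15 lower (median log2FC -0.26), with 2 higher without shCDK12 replicate 2 and 3 higher without shCDK12 replicate 3 or shNT_OHT replicate 3. MRPL49, of the large subunit, was lower at 151 ± 15.7 against 343 ± 62.3 CPM (log2FC -1.19 ± 0.15, adjusted p = 4.56e-05). Processed copies of ribosomal protein genes can share reads with them, so these counts are uncertain.

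Reads on MYC can come from the gene or from the MycER transgene. Together they gave 1265, 1039.6 and 1139 CPM in the libraries labelled shCDK12 (1148 ± 113) against 2213, 1716 and 1971 CPM in shNT_OHT (1967 ± 249). MYC was lower by 1.72-fold in the libraries labelled shCDK12 (log2FC -0.78 ± 0.12, adjusted p = 0.00019), and untreated shNT (2116 ± 117 CPM) was near shNT_OHT. MAX, the partner of Myc, was at 196, 221 and 203 CPM against 170.3, 158 and 140.0 CPM (log2FC 0.41 ± 0.13, adjusted p = 0.0255). Its adjusted p was 0.1 without shCDK12 replicate 2, 0.0809 without shCDK12 replicate 3 and 0.131 without shNT_OHT replicate 3. In the network of Myc, Max and their relatives, 5 of 12 genes tested were higher and 2 lower (median log2FC 0.41), with 3 higher without shCDK12 replicate 3 and 9 higher with length and GC trends removed. MXD1 and MXI1 encode partners of Max that repress E-box genes, and both were higher. MXD1 was at 123, 127 and 118 CPM against 50.5, 40.7 and 61 CPM (log2FC 1.25 ± 0.17, adjusted p = 7.69e-05). MXI1 was at 188, 212 and 204 CPM against 59, 112 and 95.6 CPM (log2FC 1.20 ± 0.19, adjusted p = 0.000315). MLX, the Max-like partner of the glucose sensor MondoA, was at 35.7, 30.7 and 37.8 CPM against 110.1, 87.1 and 98.8 CPM (log2FC -1.52 ± 0.17, adjusted p = 1.54e-05). Genes known to be repressed by Myc went both ways, and 6 of 22 genes tested were higher and 10 lower (median log2FC -0.22, -0.49 at equal depth). THBS1, which encodes the matrix protein thrombospondin 1, was at 447, 385 and 379 CPM against 2088, 1946 and 2051 CPM (log2FC -2.33 ± 0.11, adjusted p = 1.65e-08). CDKN2B, for a cyclin-dependent kinase inhibitor, was at 16.9, 14.4 and 13 CPM against 60.9, 54.8 and 54.4 CPM (log2FC -1.95 ± 0.20, adjusted p = 9.58e-06). Both were lower in all 3 libraries. BTG1, an antiproliferative gene, was higher, at 173, 206 and 186 CPM against 50.8, 98.8 and 83.3 CPM (log2FC 1.31 ± 0.20, adjusted p = 0.000222). At each of these genes the libraries of the groups were fully apart.

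**Figure D2:**
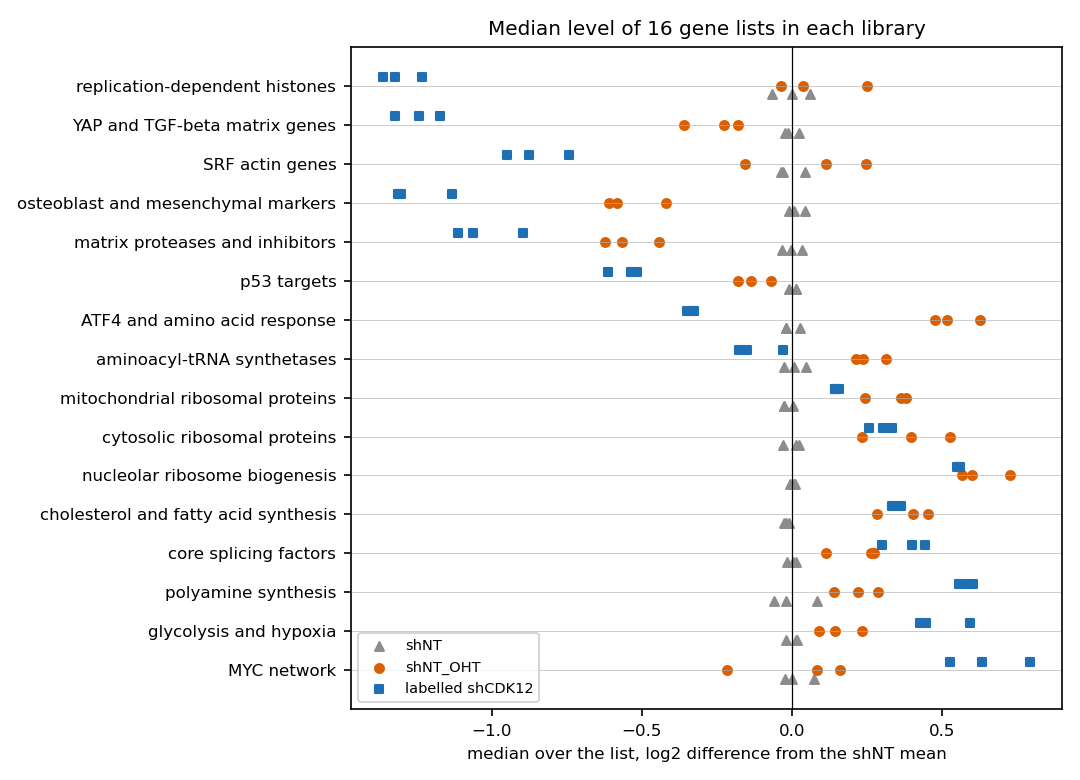
Median over each of 16 gene lists of the log2 difference from the shNT mean (horizontal axis), for every library of shNT (triangles), shNT_OHT (circles) and the libraries labelled shCDK12 (squares). Nucleolar factors are above 0 in both groups, whereas histones lie near 0 in shNT_OHT and from -1.36 to -1.23 in the libraries labelled shCDK12, and the medians of the amino acid response list lie on opposite sides of 0.

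Replication-dependent histone genes had the median log2FC farthest from 0 of the 38 lists with a gene tested. These intron-poor genes encode the histones packed onto new DNA, are transcribed in S phase and end in a stem-loop in place of a poly(A) tail. Their summed level was 6666, 5864 and 6559 CPM in the libraries labelled shCDK12 against 18373, 14857 and 18378 CPM in shNT_OHT. It was 14888, 15827 and 15234 CPM in shNT and 6603, 7106 and 6145 CPM in the libraries labelled shCDK12_OHT. Every library labelled shCDK12, with or without OHT, was below every shNT and shNT_OHT library. Of the 52 histone genes counted, 33 passed the filter, 28 were lower and 4 higher, with 2 higher without shCDK12 replicate 1 or shCDK12 replicate 3 and 0 higher among the 25 still tested at equal depth. The groups did not overlap at 32 of them, and the median log2FC was -1.43.

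H2AC20, an H2A gene, was at 326, 252 and 280.4 CPM in the libraries labelled shCDK12 (286 ± 37) against 1985, 1477 and 2169 CPM in shNT_OHT (1877 ± 358). Its level was 6.58-fold lower (log2FC -2.72 ± 0.15, adjusted p = 4.28e-08). H2BC7, an H2B gene, was at 23.2, 33.5 and 27.8 CPM against 183, 183 and 195 CPM (log2FC -2.72 ± 0.17, adjusted p = 8.92e-08). All 3 libraries labelled shCDK12 were below all 3 of shNT_OHT at both genes.

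Opposite to the rest, H4C4 was at 32.3, 32.7 and 33.2 CPM in the libraries labelled shCDK12 (32.8 ± 0.461) against 4.1, 3.32 and 2.58 CPM in shNT_OHT (3.33 ± 0.762) (log2FC 3.29 ± 0.29, adjusted p = 2.39e-06), and shNT cells were as low as shNT_OHT, at 3.31, 4.41 and 4.18 CPM. H2BC8 was at 32.1, 29.9 and 27.8 CPM against 5.36, 6.64 and 4.87 CPM (log2FC 2.46 ± 0.27, adjusted p = 1.46e-05). At the depth sequenced these weakly transcribed genes were thus the reverse of their list, 9.81-fold and 5.51-fold higher. H4C4 had 13, 4 and 9 counts in shNT_OHT, and passed the filter through the 134, 310 and 177 counts of the libraries labelled shCDK12. H2BC8, at 5.36, 6.64 and 4.87 CPM in shNT_OHT, passed it in the same way, and the folds of both genes are imprecise. At equal depth both fall below the filter. That 0 of the 25 histone genes tested there were called higher therefore does not bear on them. The other members called higher were H2AC8 (16.4 ± 4.27 against 3.11 ± 2.24 CPM, log2FC 2.57, adjusted p = 0.000906) and H4C3 (310.4 ± 28.4 against 242 ± 25.2 CPM, log2FC 0.35, adjusted p = 0.0418), named after their values were seen because so few went up. H2AC8 also passed the filter through the libraries labelled shCDK12, and its fold is imprecise. Histone genes of a class are near-identical copies, and how reads that fit several were counted is not given in the sources used here. The 1 tested member that did not pass was H1-1, with overlapping libraries at 128 ± 13.8 against 159.6 ± 25.7 CPM (log2FC -0.34 ± 0.15, adjusted p = 0.0976), also chosen after its value was seen.

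The promoters of the histone genes that differed most each way are shown because the list's direction split between them, beside promoters of nucleolar factors that carry the E-box. Each is the stretch of 250 bases before the start site in RefSeq (GRCh38.p14, a later build than the hg19 of the counts), written 5′ to 3′ on the gene's strand. Capitals mark the E-box, CACGTG, which reads alike on both strands. They also mark the TATA box as TATAAA, or as TTTATA where it lies on the other strand. The CCAAT box is marked in the same way, as ATTGG where it is reversed. The stretch for H2AC20 is chr1:149886668-149886917 (plus strand) and that for H4C4 is chr6:26189113-26189362 (minus strand). For EBNA1BP2 it is chr1:43172571-43172820 (minus strand), and for IMP4, a processome gene of the nucleolar list chosen after its sequence was seen, chr2:130342647-130342896 (plus strand).
H2AC20: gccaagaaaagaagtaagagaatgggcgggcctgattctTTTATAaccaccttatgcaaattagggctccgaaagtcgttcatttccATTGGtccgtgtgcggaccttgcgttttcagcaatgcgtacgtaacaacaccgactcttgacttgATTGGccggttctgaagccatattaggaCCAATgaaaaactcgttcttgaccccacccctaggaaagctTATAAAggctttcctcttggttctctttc
H4C4: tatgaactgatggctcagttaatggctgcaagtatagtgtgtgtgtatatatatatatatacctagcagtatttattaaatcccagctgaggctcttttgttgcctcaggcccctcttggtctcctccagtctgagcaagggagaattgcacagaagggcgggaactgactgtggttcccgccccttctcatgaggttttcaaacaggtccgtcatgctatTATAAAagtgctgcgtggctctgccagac
EBNA1BP2: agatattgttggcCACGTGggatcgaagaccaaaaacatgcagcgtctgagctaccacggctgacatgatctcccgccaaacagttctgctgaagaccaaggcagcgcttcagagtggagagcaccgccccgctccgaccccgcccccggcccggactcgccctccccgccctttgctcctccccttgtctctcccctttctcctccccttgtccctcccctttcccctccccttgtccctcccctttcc
IMP4: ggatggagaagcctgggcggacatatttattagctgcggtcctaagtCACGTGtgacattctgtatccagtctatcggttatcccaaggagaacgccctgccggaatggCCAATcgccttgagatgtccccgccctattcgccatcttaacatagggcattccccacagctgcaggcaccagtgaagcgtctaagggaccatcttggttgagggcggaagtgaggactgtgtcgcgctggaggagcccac

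The histone promoters both hold TATAAA with its first base 29 bases before the start, and H2AC20 holds CCAAT 3 times where H4C4 holds none. This pair was picked by fold change, and CCAAT was not counted by direction among the histone genes. Over the 30 histone promoters matched, TATAAA was found in 70.0% and CCAAT in 86.7%, against 5.14% and 35.7% of all 8694 promoters matched, and CACGTG was found in 0 of the 30. CACGTG was in 9.19% of all promoters, in 9.90% of those of genes called higher, in 8.34% of those called lower and in 14.6% of those of nucleolar factors (6 of 41). In the longer window of 300 bases, which adds the 50 bases after the start, it was in 39.0% of the nucleolar promoters (16 of 41) against 10.6% of all. The shares of the genes called higher and lower were thus both near the share over all promoters, and no difference between them was tested. A match describes the letters in the window and no binding was measured.

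**Figure D3:**
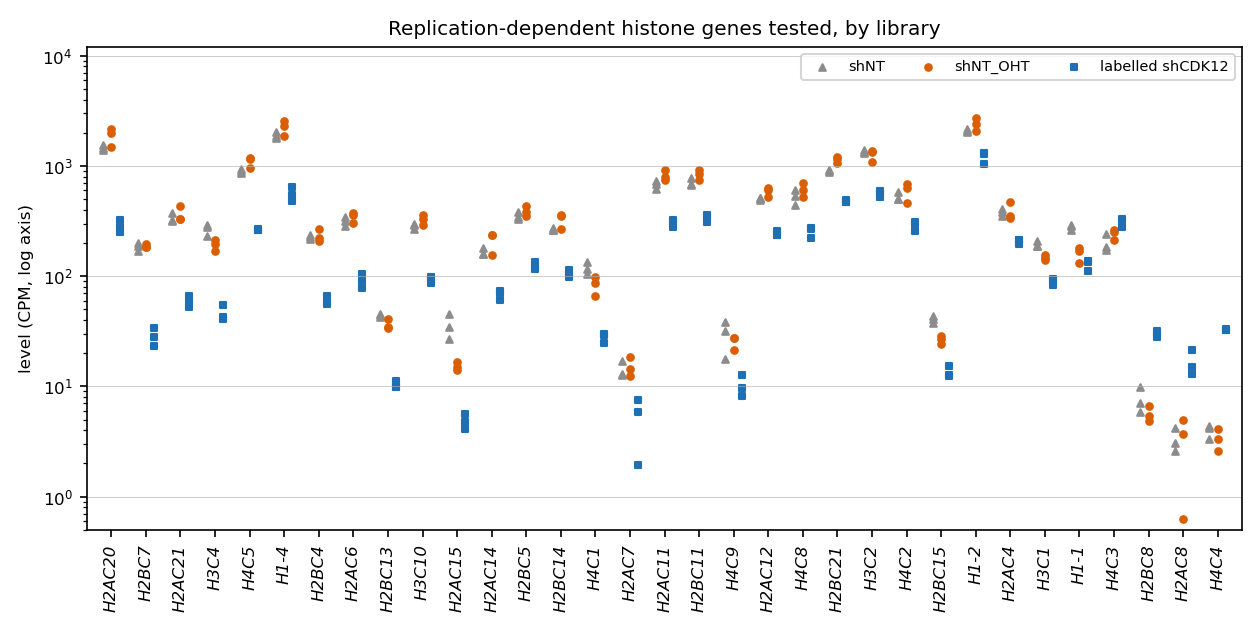
Level of each of the 33 replication-dependent histone genes tested (CPM, logarithmic axis) in every library of shNT (triangles), shNT_OHT (circles) and the libraries labelled shCDK12 (squares), ordered by log2 fold change from -2.72 at the left to 3.29 at the right. Squares lie below the circles at 28 genes and above them at the last 4.

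Most genes of the YAP and TGF-beta matrix list were lower in the libraries labelled shCDK12. Of the matrix genes driven by YAP and TGF-beta, 2 of 25 genes tested were higher and 22 lower (median log2FC -1.10), and at 24 of them the groups did not overlap. Their summed level was 9509, 9178 and 9666 CPM against 20123, 20902 and 22722 CPM in shNT_OHT, and 24038, 22636 and 23000.0 CPM in shNT. FN1, which encodes fibronectin, was at 42.7, 35.3 and 39.1 CPM in the libraries labelled shCDK12 (39 ± 3.69) against 396, 312 and 334 CPM in shNT_OHT (347 ± 43.5). It was 8.95-fold lower (log2FC -3.16 ± 0.15, adjusted p = 1.65e-08), and shNT was the highest of the groups at 667 ± 28.9 CPM. LTBP2, which encodes a protein of elastic fibres, was at 26.3, 23.3 and 24 CPM against 227, 182 and 197 CPM (log2FC -3.05 ± 0.16, adjusted p = 2.33e-08). Only 2 of the list were higher. CCN3, a matricellular gene, was at 97.5, 108 and 99.2 CPM against 60.2, 53.1 and 48.1 CPM (log2FC 0.92 ± 0.16, adjusted p = 0.000495). TGFBR1, which encodes a TGF-beta receptor, was at 121, 115 and 107 CPM against 43.8, 92.9 and 71 CPM (log2FC 0.76 ± 0.21, adjusted p = 0.0125).

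Genes of the actin cytoskeleton that SRF controls were also lower, and 1 of 27 genes tested was higher and 21 lower (median log2FC -0.71). TAGLN, which encodes the actin-binding transgelin, was at 78.2, 82.4 and 89.4 CPM in the libraries labelled shCDK12 (83.3 ± 5.68) against 445, 305 and 383 CPM in shNT_OHT (377 ± 70.2). It was 4.55-fold lower (log2FC -2.18 ± 0.15, adjusted p = 3.11e-07), and shNT, at 167 ± 14.6 CPM, lay between the groups. MYL9, a myosin light chain gene, was at 32.8, 21.5 and 27.8 CPM against 116, 81.3 and 101 CPM (log2FC -1.89 ± 0.20, adjusted p = 1.05e-05), again with no overlap. Relative to shNT, the median log2 difference of the actin list was 0.028 in shNT_OHT and -0.90 in the libraries labelled shCDK12.

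Collagens, integrins and matrix proteases were more mixed. Among collagens, 2 of 13 genes tested were higher and 5 lower (median log2FC -0.22, -0.57 at equal depth), with 4 higher with length and GC trends removed, where the median was 0.051. COL6A3, a chain of the microfibril collagen VI, was at 16.9, 12.9 and 15.6 CPM in the libraries labelled shCDK12 (15.1 ± 2.05) against 113, 124 and 109.9 CPM in shNT_OHT (116 ± 7.64). It was 7.72-fold lower (log2FC -2.95 ± 0.18, adjusted p = 8.48e-08). COL3A1, a fibrillar collagen gene, was higher at 29.4, 32.3 and 37.2 CPM against 19.6, 12.4 and 17.5 CPM (log2FC 0.95 ± 0.23, adjusted p = 0.00542). Among integrins and laminins, 3 of 17 genes tested were higher and 8 lower (median log2FC -0.34, -0.61 at equal depth), with 1 higher without shCDK12 replicate 2 or shCDK12 replicate 3. ITGA3, which encodes a laminin-binding integrin chain, was at 82.5, 84.8 and 76.1 CPM against 364, 262 and 276 CPM (log2FC -1.89 ± 0.15, adjusted p = 9.45e-07). The laminin gene LAMB3 was at 131, 125 and 129 CPM against 429, 326 and 366 CPM (log2FC -1.55 ± 0.13, adjusted p = 1.62e-06). LAMA1, another laminin gene, was higher at 111, 99.2 and 97.7 CPM against 66.5, 70.5 and 70.4 CPM (log2FC 0.57 ± 0.15, adjusted p = 0.00733). At each gene named here the libraries of the groups did not overlap.

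Among matrix proteases and their inhibitors, 4 of 19 genes tested were higher and 8 lower (median log2FC -0.43, -0.79 at equal depth), with 2 higher without shCDK12 replicate 1, shCDK12 replicate 2 or shCDK12 replicate 3. TIMP1, a metalloproteinase inhibitor gene, was at 100.1, 94.6 and 104 CPM against 556, 456 and 593 CPM (log2FC -2.43 ± 0.13, adjusted p = 4.25e-08). PLAU, which encodes urokinase, was at 15.4, 10.9 and 9.2 CPM against 56.5, 34.9 and 51.8 CPM (log2FC -2.06 ± 0.26, adjusted p = 4.57e-05). In shNT these were at 721 ± 6.99 CPM and 172 ± 3.54 CPM. ADAMTS1, a protease gene, was higher at 164, 154 and 175 CPM against 54.6, 84.6 and 79.9 CPM (log2FC 1.19 ± 0.17, adjusted p = 0.000145). MMP13, a collagenase gene, was higher too, at 12.8, 18.8 and 13.1 CPM against 5.05, 6.64 and 6.87 CPM (log2FC 1.29 ± 0.32, adjusted p = 0.00595).

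The osteoblast and mesenchymal markers checked for the cell line moved with these genes. Of the 22 counted, 12 passed the filter, 9 were lower and 1 higher (median log2FC -0.91). Over all 22 the summed level was 577, 544 and 558 CPM in the libraries labelled shCDK12 against 984, 976 and 941 CPM in shNT_OHT. It was highest in shNT, at 1333, 1312 and 1312 CPM. VIM, the vimentin gene, was the most abundant, and 0 of the 22 were without counts in the 6 libraries. The receptor gene PDGFRA was at 9.17, 9.49 and 11.3 CPM against 42.3, 63.1 and 47.5 CPM (log2FC -2.32 ± 0.23, adjusted p = 7.2e-06), and PDGFRB was at 12.1, 10.5 and 9.02 CPM against 38.2, 29 and 33.2 CPM (log2FC -1.69 ± 0.24, adjusted p = 0.000119). The homeobox gene MSX2 was higher, at 65.4, 68.5 and 68.4 CPM against 24, 34 and 28.1 CPM (log2FC 1.27 ± 0.18, adjusted p = 0.000141). In bulk libraries a smaller share of cells that transcribe a gene and less transcription in each cell cannot be told apart, and the part of marker levels in the matrix differences was not tested.

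**Figure D4:**
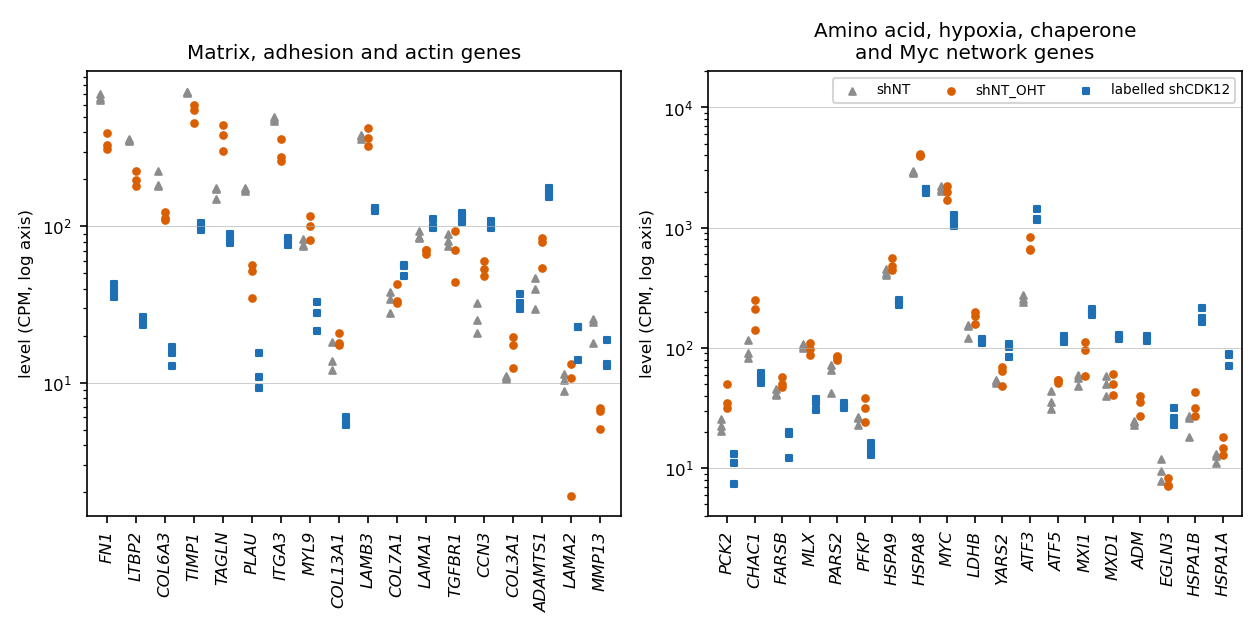
Levels (CPM, logarithmic axes) of 18 matrix, adhesion and actin genes (left) and 19 amino acid, hypoxia, chaperone and Myc network genes (right) in every library of shNT (triangles), shNT_OHT (circles) and the libraries labelled shCDK12 (squares), each panel ordered by log2 fold change. FN1 at the far left falls from 347 ± 43.5 CPM in shNT_OHT to 39 ± 3.69 CPM, and HSPA1A at the far right goes from 15.3 ± 2.72 to 82.2 ± 9.6 CPM.

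The medians of the amino acid response genes lay on opposite sides of shNT. The transcription factor ATF4 induces genes of amino acid synthesis and uptake when amino acids are short. The median log2 difference from shNT was 0.58 in shNT_OHT and -0.29 in the libraries labelled shCDK12. The summed level did not follow the median, since it was above shNT in both groups, at 10233, 8584 and 9507 CPM in shNT_OHT, 7047, 6650.0 and 7317 CPM in the libraries labelled shCDK12 and 6325, 6248 and 6531 CPM in shNT. Between the groups, 2 of 28 genes tested were higher and 16 lower (median log2FC -0.79), and at 22 they did not overlap. CHAC1, which encodes a glutathione-degrading enzyme, was at 62, 50.8 and 56.3 CPM in the libraries labelled shCDK12 (56.4 ± 5.59) against 249, 141 and 211 CPM in shNT_OHT (200.2 ± 54.6). It was 3.60-fold lower (log2FC -1.85 ± 0.19, adjusted p = 9.12e-06), with shNT at 96.3 ± 18.1 CPM. PCK2, the mitochondrial PEP carboxykinase gene, was at 13, 11.1 and 7.33 CPM against 35, 49.8 and 31.5 CPM (log2FC -1.85 ± 0.27, adjusted p = 0.000166). The 2 members called higher are themselves transcription factor genes. ATF5 was at 113, 116 and 125 CPM against 54.2, 53.9 and 51.5 CPM (log2FC 1.15 ± 0.15, adjusted p = 5.37e-05), with shNT at 37 ± 6.73 CPM. ATF3 was at 1158, 1178 and 1420.3 CPM against 668, 656 and 836 CPM (log2FC 0.80 ± 0.13, adjusted p = 0.000265), with shNT at 257 ± 17.3 CPM.

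Aminoacyl-tRNA synthetases, which load tRNAs with amino acids, leaned the same way, and 4 of 36 genes tested were higher and 18 lower (median log2FC -0.40), with 2 higher without shCDK12 replicate 1 or shNT_OHT replicate 3. FARSB, for cytosolic phenylalanyl-tRNA, was at 12.1, 19.9 and 19.3 CPM against 47, 50.6 and 57.8 CPM (log2FC -1.58 ± 0.23, adjusted p = 0.000144). PARS2, for mitochondrial prolyl-tRNA, was at 31.8, 32.1 and 34.6 CPM against 86.1, 84.6 and 80.1 CPM (log2FC -1.35 ± 0.16, adjusted p = 2.68e-05). The mitochondrial synthetase gene YARS2 was higher, at 83.7, 109 and 101 CPM against 48.6, 63.9 and 69.3 CPM (log2FC 0.70 ± 0.18, adjusted p = 0.0068). In nucleotide synthesis 1 of 28 genes tested was higher and 9 lower (median log2FC -0.14, -0.27 at equal depth), with 3 higher with length and GC trends removed and 5 lower without shCDK12 replicate 2. The median log2 difference of this list from shNT was 0.28 in shNT_OHT and 0.044 in the libraries labelled shCDK12. UMPS, which makes UMP, was at 106, 100.3 and 103 CPM against 199.6, 223 and 167 CPM (log2FC -0.93 ± 0.14, adjusted p = 0.000227), with shNT at 124 ± 9.95 CPM near the libraries labelled shCDK12. MTHFD1L, of mitochondrial folate metabolism, was at 78.6, 70.1 and 59.4 CPM against 117, 116 and 119 CPM (log2FC -0.76 ± 0.15, adjusted p = 0.00154).

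Polyamine genes leaned the other way, and 5 of 12 genes tested were higher and 1 lower (median log2FC 0.28, 0.47 at equal depth). AMD1, which makes the propylamine donor of spermidine synthesis, was at 279.9, 369 and 312 CPM against 101, 177 and 148 CPM (log2FC 1.20 ± 0.18, adjusted p = 0.000212). OAZ1, which encodes antizyme, the inhibitor of the first enzyme of the pathway, was at 245, 226 and 254 CPM against 110.4, 126 and 108 CPM (log2FC 1.08 ± 0.13, adjusted p = 3.67e-05). SRM, spermidine synthase, was lower at 36.2, 25.2 and 27.6 CPM against 61.5, 54.8 and 47.8 CPM (log2FC -0.89 ± 0.20, adjusted p = 0.00352). The higher members thus included both a synthesis enzyme and an inhibitor.

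Glycolysis and hypoxia genes were higher in the libraries labelled shCDK12 more often than lower. Of this list, 15 of 35 genes tested were higher and 6 lower (median log2FC 0.30). The median log2 difference from shNT was 0.08 in shNT_OHT and 0.56 in the libraries labelled shCDK12. ADM, which encodes the hypoxia-induced peptide adrenomedullin, was at 114, 127 and 118 CPM in the libraries labelled shCDK12 (119.7 ± 6.29) against 27.1, 39.8 and 35.5 CPM in shNT_OHT (34.1 ± 6.46). It was 3.58-fold higher (log2FC 1.84 ± 0.17, adjusted p = 4.31e-06). EGLN3, an oxygen-sensing prolyl hydroxylase gene, was at 22.9, 31.6 and 25.9 CPM against 7.25, 8.3 and 7.16 CPM (log2FC 1.86 ± 0.27, adjusted p = 0.000141), with no overlap in either case. PFKP, for a phosphofructokinase of glycolysis, was lower at 14.2, 16.2 and 12.8 CPM against 24.3, 38.2 and 31.8 CPM (log2FC -1.09 ± 0.24, adjusted p = 0.00333). LDHB, a lactate dehydrogenase gene, was lower at 118, 109.6 and 116 CPM against 157, 185 and 197 CPM (log2FC -0.65 ± 0.14, adjusted p = 0.00238).

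Chaperones split by gene. In this list 6 of 28 genes tested were higher and 8 lower (median log2FC -0.10), with 5 lower without shCDK12 replicate 2, shCDK12 replicate 3 or shNT_OHT replicate 3. The stress-inducible HSP70 gene HSPA1A was at 71.2, 86.8 and 88.7 CPM against 14.8, 18.3 and 12.9 CPM (log2FC 2.47 ± 0.20, adjusted p = 1.13e-06). Its copy HSPA1B was at 164, 215 and 176 CPM against 42.9, 31.5 and 27.2 CPM (log2FC 2.44 ± 0.19, adjusted p = 9.18e-07). The constitutive HSPA8 was at 2117, 1948 and 2102 CPM in the libraries labelled shCDK12 (2056 ± 93.3) against 3998, 3939 and 4140.2 CPM in shNT_OHT (4026 ± 103). It was 1.96-fold lower (log2FC -0.97 ± 0.091, adjusted p = 3.81e-06). The mitochondrial HSPA9 was at 252, 239 and 229 CPM against 445, 479 and 555 CPM (log2FC -1.04 ± 0.12, adjusted p = 2.54e-05). HSPA1A and HSPA1B are near-identical, so how reads were split between them is uncertain, but both were higher.

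In cholesterol and fatty acid synthesis 6 of 32 genes tested were higher and 8 lower (median log2FC 0.029, -0.0068 at equal depth), with 4 lower without shCDK12 replicate 2 and 5 lower without shCDK12 replicate 3. Sterol enzyme genes that were higher included CYP51A1 (205 ± 22.3 against 98.6 ± 36.3 CPM, log2FC 1.10, adjusted p = 0.000906) and IDI1 (94 ± 16 against 50.5 ± 10.6 CPM, log2FC 0.94, adjusted p = 0.00171). The desaturase genes FADS2 (53.9 ± 7.21 against 119.8 ± 21.5 CPM, log2FC -1.16, adjusted p = 0.000187) and FADS1 (62.1 ± 8.57 against 114 ± 14.3 CPM, log2FC -0.90, adjusted p = 0.000795) were lower. Among nuclear genes of the respiratory chain 11 of 59 genes tested were higher and 4 lower (median log2FC -0.048, -0.086 with length and GC trends removed). The counts were 5 higher without shCDK12 replicate 3, 6 higher without shCDK12 replicate 1 or shCDK12 replicate 2, 7 higher without shNT_OHT replicate 3, 8 lower without shNT_OHT replicate 1 or shNT_OHT replicate 2 and 9 lower with length and GC trends removed. NDUFC2, a complex I gene that overlaps a readthrough gene, was at 48.2, 80.1 and 59.7 CPM against 14.5, 19.1 and 11.4 CPM (log2FC 2.14 ± 0.25, adjusted p = 3e-05).

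The transcription kinases and their regulators included a large difference at HEXIM1, which encodes the inhibitor that holds the elongation kinase P-TEFb in its inactive complex. HEXIM1 was at 1009.6, 992 and 1021 CPM in the libraries labelled shCDK12 (1007 ± 14.7) against 275, 241 and 268 CPM in shNT_OHT (261 ± 17.7). It was 3.84-fold higher (log2FC 1.94 ± 0.11, adjusted p = 4.43e-08), and shNT, at 238 ± 11.1 CPM, was near shNT_OHT. CDK9, the kinase of P-TEFb, was at 107, 98 and 106 CPM against 201, 180.1 and 139 CPM (log2FC -0.74 ± 0.16, adjusted p = 0.00218). Of the whole list of CDK12 partners and transcription kinases, 6 of 20 genes tested were higher and 3 lower (median log2FC 0.27, 0.12 with length and GC trends removed and 0.10 at equal depth), with 1 lower without shCDK12 replicate 2 or shCDK12 replicate 3. In elongation and 3′ end processing, 4 of 36 genes tested were higher and 7 lower (median log2FC -0.16, -0.075 with length and GC trends removed), with 4 lower without shCDK12 replicate 2. POLR2A, the largest subunit of RNA polymerase II, was at 375, 263 and 320.4 CPM against 139, 94.6 and 118 CPM (log2FC 1.43 ± 0.17, adjusted p = 2.54e-05). CTR9, of the PAF elongation complex, was at 145, 134 and 118 CPM against 44.1, 54.8 and 46.4 CPM (log2FC 1.47 ± 0.16, adjusted p = 1.4e-05). SUPT16H, of the histone chaperone FACT, was lower at 80.6, 76.8 and 94.8 CPM against 131, 154 and 152 CPM (log2FC -0.79 ± 0.15, adjusted p = 0.000973). At these 5 genes the groups did not overlap.

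DNA repair genes of homologous recombination and the Fanconi pathway, the class best known for needing CDK12, did not lean one way, and 10 of 42 genes tested were higher and 9 lower (median log2FC 0.0064, -0.047 with length and GC trends removed and 0.17 at equal depth), with 3 lower without shCDK12 replicate 2. FANCL, a Fanconi ubiquitin ligase gene, was at 12.8, 31.5 and 22.2 CPM against 2.52, 6.64 and 1.43 CPM (log2FC 2.98 ± 0.49, adjusted p = 0.000344) and overlaps VRK2. FANCL passed the filter through the libraries labelled shCDK12, so its fold is imprecise. FANCB, of the Fanconi core complex, was at 30.6, 37.6 and 27.4 CPM against 5.99, 14.9 and 16.3 CPM (log2FC 1.4 ± 0.32, adjusted p = 0.00349). XRCC3, of strand exchange in recombination, was lower at 15, 12.3 and 15.2 CPM against 32.2, 27.4 and 31.2 CPM (log2FC -1.12 ± 0.23, adjusted p = 0.00166). SLX4, a nuclease scaffold gene, was lower at 35.9, 30.4 and 30.2 CPM against 58.7, 52.3 and 56.4 CPM (log2FC -0.80 ± 0.18, adjusted p = 0.00293). Among R-loop factors 2 of 24 genes tested were higher and 1 lower (median log2FC 0.11, -0.053 with length and GC trends removed), with 5 higher without shNT_OHT replicate 1 or with length and GC trends removed and 3 lower with length and GC trends removed.

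Replication and cell cycle genes went both ways, and p53 targets were more often lower than higher. In replication licensing and fork genes 14 of 45 genes tested were higher and 7 lower (median log2FC 0.13, 0.086 at equal depth), with 3 lower without shCDK12 replicate 3 and 4 lower without shCDK12 replicate 2. DBF4, the activator of the origin kinase CDC7, was at 262, 307 and 292 CPM against 54.9, 187 and 114 CPM (log2FC 1.33 ± 0.29, adjusted p = 0.00269). GINS1, of the replicative helicase, was at 47.8, 44 and 39.3 CPM against 121, 80.5 and 101 CPM (log2FC -1.23 ± 0.18, adjusted p = 0.000141). Among G1 to S cyclins and E2F genes 5 of 21 genes tested were higher and 4 lower (median log2FC 0.00047, -0.022 with length and GC trends removed and -0.032 at equal depth), with 2 lower without shCDK12 replicate 3 or shNT_OHT replicate 3. The gene of the S phase transcription factor E2F2 and that of cyclin E2 were higher, with E2F2 (113 ± 20.6 against 35.2 ± 3.52 CPM, log2FC 1.69, adjusted p = 1.51e-05) and CCNE2 (52.9 ± 13 against 19.4 ± 6.45 CPM, log2FC 1.43, adjusted p = 0.000857). The cyclin D1 gene was lower, with CCND1 (215 ± 12 against 318 ± 25.7 CPM, log2FC -0.56, adjusted p = 0.00249), and shNT was at 678 ± 17.2 CPM. Among mitosis genes 7 of 42 genes tested were higher and 4 lower (median log2FC -0.03, -0.0079 with length and GC trends removed). The counts were 3 higher without shCDK12 replicate 2, 4 higher without shNT_OHT replicate 3, 2 lower without shCDK12 replicate 1, shCDK12 replicate 2 or shCDK12 replicate 3, 7 lower without shNT_OHT replicate 1, 8 lower without shNT_OHT replicate 2 and 11 lower with length and GC trends removed. The chromosomal passenger kinase gene AURKB (27.4 ± 2.79 against 63.3 ± 7.04 CPM, log2FC -1.21, adjusted p = 0.000187) was lower. The centrosome kinase gene NEK2 (59.7 ± 7.8 against 28.2 ± 4.5 CPM, log2FC 1.10, adjusted p = 0.000727) was higher. Among p53 targets 5 of 29 genes tested were higher and 13 lower (median log2FC -0.34), with 2 higher without shCDK12 replicate 2, shCDK12 replicate 3 or shNT_OHT replicate 1, 3 higher without shNT_OHT replicate 3 and 8 higher without shNT_OHT replicate 2. Their median log2 difference from shNT was -0.10 in shNT_OHT and -0.59 in the libraries labelled shCDK12. TP53I3 was at 13, 15.8 and 13.9 CPM against 48.6, 41.5 and 51.5 CPM (log2FC -1.73 ± 0.21, adjusted p = 3.33e-05). PLK3, a stress-responsive kinase gene, was at 113, 104 and 97.7 CPM against 366, 294 and 309 CPM (log2FC -1.63 ± 0.13, adjusted p = 1.23e-06). FBXW7, which encodes the ligase subunit that marks Myc for degradation, was higher at 186, 191 and 189 CPM against 89.6, 127 and 85.6 CPM (log2FC 0.93 ± 0.16, adjusted p = 0.000516).

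Core splicing factors and snoRNA hosts had medians above 0 that were near 0 once length and GC trends were removed. In core splicing factors 8 of 43 genes tested were higher and 4 lower (median log2FC 0.16), a median of 0.019 with length and GC trends removed. There were 5 higher without shCDK12 replicate 2, 13 higher without shNT_OHT replicate 2, 2 lower without shCDK12 replicate 1, shCDK12 replicate 2, shCDK12 replicate 3 or shNT_OHT replicate 3 and 7 lower with length and GC trends removed, and 4 higher with exonic length in place of span. The U2 snRNP gene SF3B2 (214 ± 21.7 against 338 ± 27.6 CPM, log2FC -0.66, adjusted p = 0.00109) was lower. The Sm protein gene SNRPE (28.2 ± 6.58 against 12.2 ± 2.81 CPM, log2FC 1.18, adjusted p = 0.00362) was higher. Among snoRNA hosts and nuclear noncoding RNAs 7 of 26 genes tested were higher and 1 lower (median log2FC 0.22, 0.12 at equal depth), -0.037 with these trends removed. There were 4 higher without shCDK12 replicate 2 or shCDK12 replicate 3 and 4 lower with length and GC trends removed. SNHG12, a snoRNA host gene, was at 306, 329 and 325 CPM against 108, 126 and 157 CPM (log2FC 1.29 ± 0.15, adjusted p = 2.15e-05). The long noncoding RNA TUG1 was at 265, 283 and 294 CPM against 399, 538 and 467 CPM (log2FC -0.73 ± 0.13, adjusted p = 0.000589). Among long and fragile site genes, which need sustained elongation, 3 of 24 genes tested were higher and 7 lower (median log2FC -0.22, -0.35 with length and GC trends removed), with 1 lower without shCDK12 replicate 3 and 3 lower without shCDK12 replicate 1 or shCDK12 replicate 2. RBMS3, an RNA-binding protein gene, was lower at 12.1, 12.8 and 9.95 CPM against 18.9, 32.4 and 14.6 CPM (log2FC -0.84 ± 0.31, adjusted p = 0.0448). SDK1, an adhesion protein gene, was lower at 12.5, 10.9 and 9.39 CPM against 14.8, 20.7 and 21.2 CPM (log2FC -0.78 ± 0.28, adjusted p = 0.0366). Both lost the call on leaving out any 1 of the libraries labelled shCDK12 or shNT_OHT replicate 2 (adjusted p between 0.0572 and 0.154). SDK1 did not pass without shNT_OHT replicate 3 (adjusted p = 0.103) or with exonic length in place of span (adjusted p = 0.0802). With replicate number as a block and length and GC trends removed, the adjusted p of SDK1 was 0.0507. THSD4, of the microfibril matrix, was at 89, 77 and 83.8 CPM against 26.5, 11.6 and 22.9 CPM (log2FC 1.94 ± 0.22, adjusted p = 2.19e-05). MAGI2, a scaffold gene, was at 18.8, 19.9 and 16.3 CPM against 3.78, 7.47 and 6.3 CPM (log2FC 1.72 ± 0.32, adjusted p = 0.000899). These 2 were higher.

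AP-1 and immediate-early genes split within families. Of them 8 of 26 genes tested were higher and 11 lower (median log2FC -0.10), 0.13 with length and GC trends removed, and 7 were lower with exonic length in place of span. FOSB, a subunit of AP-1, was at 172, 186 and 218 CPM against 48.9, 48.1 and 61.5 CPM (log2FC 1.85 ± 0.16, adjusted p = 2.19e-06). FOS was at 624, 543 and 645 CPM against 281, 217 and 276 CPM (log2FC 1.22 ± 0.13, adjusted p = 1.14e-05). Their relative FOSL2 went the other way, at 255, 234 and 255 CPM in the libraries labelled shCDK12 (248 ± 11.9) against 1052, 900.4 and 871 CPM in shNT_OHT (941 ± 97.2). It was 3.80-fold lower (log2FC -1.93 ± 0.12, adjusted p = 8.52e-08). The zinc finger gene EGR2 was at 137, 132 and 133 CPM against 311, 284 and 319 CPM (log2FC -1.19 ± 0.12, adjusted p = 8.05e-06). Among NF-kB and cytokine genes 2 of 20 genes tested were higher and 9 lower (median log2FC -0.48), with 0 higher without shCDK12 replicate 2. The chemokine gene CCL2 was at 34.3, 38.3 and 28 CPM against 148, 88 and 133 CPM (log2FC -1.89 ± 0.20, adjusted p = 1.19e-05). CSF2, which encodes the growth factor GM-CSF, was at 1.45, 2.74 and 2.07 CPM against 32.5, 19.9 and 14.6 CPM (log2FC -3.34 ± 0.39, adjusted p = 2.61e-05). IL1A, the interleukin 1 alpha gene, stood opposite at 16.2, 23.8 and 17.5 CPM against 0, 1.66 and 2.0 CPM (log2FC 4.04 ± 0.54, adjusted p = 7.85e-05). IL1A had 0, 2 and 7 counts in shNT_OHT, and passed the filter through the 67, 226 and 93 counts of the libraries labelled shCDK12. Its fold is therefore imprecise. At equal depth IL1A falls below the filter, so that 0 of the 15 genes tested in this list were called higher there does not bear on it. In the interferon list 3 of 14 genes tested were higher and 3 lower (median log2FC 0.072, 0.26 at equal depth), with 1 lower without shCDK12 replicate 2, shCDK12 replicate 3 or shNT_OHT replicate 3. The class I antigen genes B2M (187 ± 27.3 against 78.2 ± 18.5 CPM, log2FC 1.26, adjusted p = 0.000152) and HLA-E (125 ± 13.3 against 66.1 ± 13.5 CPM, log2FC 0.89, adjusted p = 0.00116) were higher, and the interferon-induced gene IFIT5 (108 ± 4.8 against 215 ± 36.6 CPM, log2FC -0.98, adjusted p = 0.000206) was lower. Genes known to answer the estrogen receptor, checked because OHT is its ligand, were few, and 2 of 8 genes tested were higher and 2 lower (median log2FC 0.20, -0.067 at equal depth). The carbonic anhydrase gene CA12 (58.9 ± 2.72 against 21.4 ± 1.06 CPM, log2FC 1.45, adjusted p = 5.18e-05) and the receptor corepressor gene NRIP1 (901 ± 20.7 against 496 ± 105 CPM, log2FC 0.86, adjusted p = 0.000363) were higher. The transcription factor genes RARA (56.1 ± 5.29 against 167 ± 12.5 CPM, log2FC -1.58, adjusted p = 3.77e-06) and XBP1 (139.8 ± 8.88 against 336 ± 9.26 CPM, log2FC -1.26, adjusted p = 4.31e-06) were lower.

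Several of the largest differences were at genes nearly silent in one group. Such genes passed the filter through the other group, so their folds and adjusted p-values are imprecise. ANKRD30B, an ankyrin repeat gene, had 3 counts in the 3 shNT_OHT libraries together and 1118 in those labelled shCDK12, a ratio of CPM of 155 (95% exact binomial interval 52.8 to 751, counting error only). TUBAL3, an alpha-tubulin-like gene, had 2 and 440 counts, a ratio of 91.3 (25.1 to 757). Their levels were 54.3, 64.4 and 53 CPM and 25.8, 21.2 and 24.8 CPM in the libraries labelled shCDK12. Both were close to absent from shNT_OHT. The zinc finger gene ZNF597 was at 35.7, 40.7 and 37.2 CPM against 2.21, 0.83 and 1.72 CPM (log2FC 4.41 ± 0.32, adjusted p = 5.07e-07). DCAF8L2, a relative of ubiquitin ligase adaptors, was at 48.7, 42 and 42.8 CPM against 5.05, 0.83 and 1.15 CPM (log2FC 4.06 ± 0.39, adjusted p = 5.04e-06). DKK1, a secreted Wnt inhibitor gene, was at 24.8, 41.8 and 27.4 CPM against 0.315, 3.32 and 4.01 CPM (log2FC 3.69 ± 0.47, adjusted p = 5.53e-05). DNAJC12, a co-chaperone gene, ZNF280A, LRRC2 and SPMIP9 had log2FC values of 3.75, 3.67, 3.28 and 3.27. At each of these the groups did not overlap, and shNT was as low as shNT_OHT or nearly so, at 6.08 ± 1.59 CPM for LRRC2 and 1.38 ± 0.468 CPM for DKK1. The libraries labelled shCDK12_OHT were at 36.3 ± 2.69 CPM for ZNF597 and 52.8 ± 7.14 CPM for DCAF8L2, near those labelled shCDK12 without OHT.

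In the other direction, LINC03033, a long noncoding RNA, was at 0.241, 0.422 and 1.5 CPM in the libraries labelled shCDK12 (0.722 ± 0.682) against 24.9, 29.9 and 30.6 CPM in shNT_OHT (28.5 ± 3.1), with shNT at 69.4 ± 10.5 CPM (log2FC -5.29 ± 0.44, adjusted p = 1.4e-06). IGFBP5, which encodes a binding protein of insulin-like growth factors, was at 0.241, 1.69 and 0.751 CPM against 31.9, 20.7 and 18 CPM (log2FC -4.46 ± 0.46, adjusted p = 8.13e-06), and shNT was higher still at 85.6 ± 6.68 CPM. SERPINA1, the alpha-1 antitrypsin gene, was at 4.34, 3.06 and 1.69 CPM against 24.6, 36.5 and 43.2 CPM (log2FC -3.53 ± 0.35, adjusted p = 6.83e-06). LFNG, which encodes the glycosyltransferase that modifies Notch, was at 65.4, 69.6 and 61.8 CPM in the libraries labelled shCDK12 (65.6 ± 3.91) against 627, 636 and 524 CPM in shNT_OHT (596 ± 62.1). It was 9.06-fold lower (log2FC -3.18 ± 0.13, adjusted p = 1.29e-08). The cancer-testis gene MAGEA3 was at 5.55, 6.22 and 5.63 CPM against 68.1, 52.3 and 62.7 CPM (log2FC -3.39 ± 0.22, adjusted p = 1.99e-07), and has a near-identical copy, MAGEA6, that can share its reads. In the libraries labelled shCDK12_OHT it was at 5.86 ± 0.763 CPM. Its relative MAGEA10 was at 5.55, 2.53 and 4.88 CPM against 34.7, 27.4 and 48.7 CPM (log2FC -3.19 ± 0.33, adjusted p = 1.03e-05). The vault RNA VTRNA1-2, a short polymerase III transcript, was at 2.65, 3.16 and 4.88 CPM against 28.7, 20.7 and 34.9 CPM (log2FC -3.00 ± 0.32, adjusted p = 1.29e-05). All genes of this paragraph but LFNG passed the filter through the shNT_OHT libraries, so their folds are imprecise too.

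Fold changes followed base composition and, less, gene length. The genes were put into 5 equal bins by the GC content of the longest transcript. The median log2FC went from 0.35 in the lowest bin (29.2% to 40.3% GC) to -0.23 in the highest (57.0% to 83.9% GC). In the lowest bin 32.1% of genes were higher and 7.56% lower, and in the highest 9.55% were higher and 30.2% lower. Spearman's rho was -0.316 across 10577 genes, which are not independent replicates. By 5 bins of gene span the median went from -0.15 in genes up to 9.42 kb to 0.15 in those from 91.7 kb (rho 0.154 across 10700 genes). Medians were thus higher in the bins of GC-poor and of long genes, whereas the list of long and fragile site genes above had a median of -0.22. After per-library trends in span and GC were removed, 5015 genes had an adjusted p under 0.05. They included 3779 of the 4294 above, all with the same sign. The medians of the histone, matrix, actin and amino acid lists were then -1.43, -1.11, -0.71 and -0.78, and at equal depth -1.54, -1.16, -0.60 and -0.71.

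**Figure D5:**
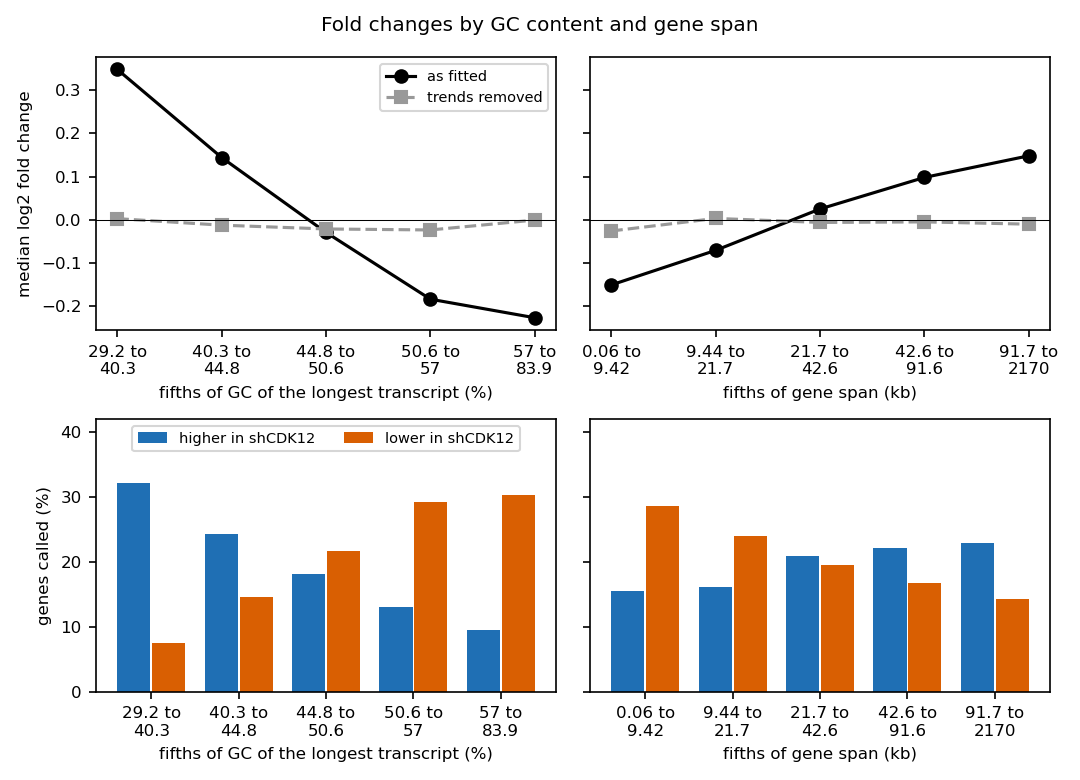
Median log2 fold change (top) and percent of genes called higher (blue) or lower (orange) in the libraries labelled shCDK12 (bottom) in 5 bins of transcript GC (left, %) and of gene span (right, kb); the dashed line gives medians with per-library trends removed. The median falls from 0.35 to -0.23 with GC and rises from -0.15 to 0.15 with span, and the dashed line stays near 0.

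Summed levels of markers of other cell types were lowest for blood and endothelial cells, higher for neuronal cells and highest for epithelial cells. Blood cell markers summed to 18.1, 16.7 and 9.77 CPM against 12.6, 9.13 and 8.01 CPM in shNT_OHT, led by CORO1A, an actin-binding protein gene whose libraries overlapped between the groups. The globin genes HBB and HBA1 were at 0, and 0 of 12 blood markers passed the filter. Endothelial markers summed to 36.4, 31.4 and 27.8 CPM against 18, 12.4 and 12.3 CPM, led by ERG, the 1 of 9 tested, at 18.3, 18.9 and 17.1 CPM against 7.57, 5.81 and 9.45 CPM (log2FC 1.19 ± 0.28, adjusted p = 0.0048). Neuronal markers summed to 256, 246 and 261 CPM against 203, 209.9 and 221 CPM. They were led by OLIG2, a transcription factor gene of the oligodendrocyte lineage and not a marker of neurons. Of 4 tested 0 were called, with 2 higher with length and GC trends removed. OLIG2 was at 132, 130.1 and 136 CPM against 91.8, 109.5 and 110.5 CPM. Epithelial markers summed to 858, 714 and 810.5 CPM against 876, 707 and 851 CPM, above the osteoblast and mesenchymal sums in the libraries labelled shCDK12. They were led by the keratin gene KRT18, which overlapped between the groups, with KRT19 at 0. Of 14 epithelial markers 4 were tested, 1 was higher and 1 lower. The tight junction gene CLDN4 (45.3 ± 4.39 against 19.2 ± 5.56 CPM, log2FC 1.18, adjusted p = 0.00121) was higher. The keratin gene KRT8 (237 ± 6.09 against 325 ± 9.66 CPM, log2FC -0.46, adjusted p = 0.00582) was lower, with an adjusted p of 0.0515 without shCDK12 replicate 3. The endothelial sums and the neuronal sums, which OLIG2 led, were higher in every library labelled shCDK12. The epithelial sums overlapped between groups. The part of these sums in the other results was not tested.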

How the data were processed

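The authors deposited 1 table of raw counts for 23434 genes by Entrez identifier in 12 libraries, without normalization. The submitters' processing notes name STAR 2.7.5c, featureCounts 1.4.5-p1 and the build hg19. Whether counting used strand, and how reads of the added mouse RNA were handled, is not given in the sources used here, and the table has no mouse rows, so a change in the total amount of new RNA cannot be seen. Reads of overlapping genes cannot be assigned with certainty, and 51 of 158 named genes overlap another gene of the table. Symbols came from RefSeq (GRCh38.p14) for 23284 rows, and 150 rows without one were kept.

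Counts of the 6 libraries were fitted in R 4.3.3 with edgeR 4.0.16 (TMM, quasi-likelihood test, Benjamini-Hochberg adjustment at 0.05 over all genes with a mean normalized count above 32). The members and the 39 gene lists were chosen with earlier results of these data known. Named genes were CDK12, CDK13, CCNK, MYC and MAX, the 12 with the largest log2 fold change each way, and the 2 largest each way in each list, among genes that passed the test, whose libraries did not overlap and that averaged at least 10 CPM over the 6 libraries. Some genes that met this rule are not reported here. Log2 differences from the shNT mean used a pseudocount of 0.5 CPM. The ratio intervals cover counting error only. Span and GC trends were removed by a loess fit (span 0.3) per library, for the 98.6% of genes with both values.

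The fit was repeated with upper-quartile normalization, with DESeq2 1.42.0, with other minimum counts, with all 12 libraries in a single fit, after thinning to 1251695 counts, with these trends removed, with replicate number as a block, and without each library in turn. The motifs TATAAA and CCAAT, the gene classes of the closing section and the counts at a log2 fold change of at least 1 were added after the data were seen. The fits were tested on simulated data with known changes.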

Additional observations from a re-analysis of the deposited data

How the results depend on the processing

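All genes called both in the reported fit and in an alternative had the same sign. DESeq2, upper-quartile normalization, the filters and the fit of all 12 libraries gave between 3249 and 5793 calls. Thinning every library to equal depth left 2755 genes called (1300 higher, 1455 lower), with fewer genes tested. Leaving out 1 library at a time gave 2810 to 4761 calls, 1314 to 2298 higher and 1496 to 2463 lower. With no filter on low counts 54.4% of calls were higher, against 48.7%, and the median log2FC of all genes was 0.25. The rank correlation with length was 0.108 for the longest transcript in place of the gene span. Of 158 named genes, 136 had the same call and direction in every alternative run, 20 lost the call in at least 1, CDK13 and CCNK gained one in at least 1, and PPAT, of purine synthesis, reversed from 0.42 to -0.107 with trends in span and GC removed, -0.105 with exonic length in place of span, and -0.089 with the block as well. The cause was not tested. Counts of list members are given here where they moved by over 1.5 times and by at least 2 genes. At equal depth, with fewer genes tested, they were 6 higher and 2 lower for the respiratory chain, 5 higher and 4 lower for homologous recombination, 1 higher and 3 lower for long genes, 2 higher for synthetases, 1 higher for matrix proteases, 2 higher for elongation, 4 lower for licensing, 0 higher for NF-kB and 1 lower for interferon. In the fit of all 12 libraries they were 27 lower for mitochondrial ribosomal proteins, 13 lower for the respiratory chain (13 higher), 13 lower for nucleolar factors, 11 higher for cytosolic ribosomal proteins, 10 higher for transcription kinases, 4 higher for nucleotide synthesis, 5 higher and 4 lower for R-loop factors, 11 lower for elongation, 8 higher for p53 targets, 7 lower for mitosis, 3 lower for snoRNA hosts and 2 higher for neuronal markers. With a minimum of 100 they were 1 higher for histones, 2 for matrix proteases and 1 for long genes, and with no filter 5 higher for interferon and 3 for epithelial markers. Of 38 list medians, 27 moved by more than the spread between libraries in at least 1 alternative, in 74 of 606 recomputed values.

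With the replicate number as a block 5013 genes were called (2586 higher, 2427 lower), and CCNK passed (adjusted p = 0.024 in edgeR). Under the block there were 11 higher among cytosolic ribosomal proteins, 9 higher among nucleolar factors, 13 higher among splicing factors, 4 higher in nucleotide synthesis, 4 higher among R-loop factors, 2 higher among neuronal markers and 8 higher among p53 targets. With trends removed as well, 11 elongation genes were lower and 14 splicing factors higher. Same-numbered libraries of the groups had deviations that correlated at 0.314, 0.347 and 0.00475 across genes, and replicate 3 of the libraries labelled shCDK12 correlated better with replicate 1 of shNT_OHT (0.077) than with its own number. Replicate 1 and replicate 2 of the libraries labelled shCDK12 correlated best with their own number, and replicate 3 did not. Whether same-numbered libraries share more than the number was not tested.

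Precision is limited by the 1251695 counts of shNT_OHT replicate 2 and by 3 libraries a group. An exact permutation test of a single value cannot go below 0.1 with 3 against 3, so no such test was used. By the labels, hairpin and OHT change together between these groups, newly made CDK12 RNA overlapped that of untreated shNT, and levels are shares of each library.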

Other observations

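Some families outside the lists above also differed, and all were chosen after their values were seen. Of 39 HOX genes, which set position along the body axis, 14 were tested, 7 were higher and 2 lower (median log2FC 0.67, 0.044 at equal depth). HOXA11 was at 147, 148 and 156 CPM against 58.7, 35.7 and 71 CPM (log2FC 1.4 ± 0.19, adjusted p = 0.000108), and HOXD1 was at 17.6, 12.9 and 14.1 CPM against 5.99, 4.98 and 2.86 CPM (log2FC 1.70 ± 0.35, adjusted p = 0.00197). HOXB3 was lower, at 28.2, 25.2 and 19.3 CPM against 90.8, 60.6 and 61 CPM (log2FC -1.56 ± 0.22, adjusted p = 0.000107), with shNT at 114 ± 12.4 CPM. The family thus held members on both sides. Of 16 MAGE genes tested 2 were higher and 7 lower (median log2FC -0.093, 0.043 with length and GC trends removed and -0.258 at equal depth). MAGEC1 was at 31.6, 28 and 35.3 CPM against 109, 83 and 73 CPM (log2FC -1.49 ± 0.19, adjusted p = 5.53e-05), and MAGED1, a broadly expressed relative, was higher at 103, 101 and 118 CPM against 70.3, 55.6 and 65.5 CPM (log2FC 0.73 ± 0.15, adjusted p = 0.00222). MAGEA6, the near-identical copy of MAGEA3, was not called, with overlapping libraries at 218 ± 14.3 against 196 ± 21.6 CPM (log2FC 0.15 ± 0.13, adjusted p = 0.388).

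Short and noncoding transcripts were also looked at by class. Of the 3 vault RNAs tested, which polymerase III makes, VTRNA1-1 was at 9.89, 16.2 and 13.3 CPM against 76.6, 69.7 and 109.9 CPM (log2FC -2.68 ± 0.23, adjusted p = 2.12e-06), and in the libraries labelled shCDK12_OHT it was at 15 ± 5.37 CPM. VTRNA1-3 was not called, with overlapping libraries at 112, 202 and 185 CPM against 160.2, 259 and 311 CPM (log2FC -0.54 ± 0.24, adjusted p = 0.0829). RPPH1, the RNA of RNase P and also a polymerase III product, was higher at 1804, 2247 and 2282 CPM against 1582, 1152 and 1661 CPM (log2FC 0.53 ± 0.14, adjusted p = 0.00864), so these products did not move one way. Among 74 snoRNA genes 13 were higher and 9 lower, and among 297 lncRNAs 54 and 49, beside 1977 and 2121 of 10151 protein-coding genes and the 19.5% and 20.5% over all genes. Of 144 transcribed pseudogenes 34 were higher and 12 lower, and these can share reads with their parent genes. No difference between classes was tested.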
